A study of Mus musculus with 12 samples.

Results

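The genes described here encode the junctions of the blood-testis barrier. They are 42 genes of a table of 20788, found by their symbols, and comprise 14 tight junction, 6 gap junction, 17 adherens and cell adhesion and 5 desmosome genes. They were measured by RNA-seq in testes of F1 males, the offspring of ICR males (the labels write IRC) whose testes had been injected with a lentivirus at 4 weeks of age. The F1 males were not injected themselves and were 8 weeks old at collection, per the study's methods, although the design text of the series describes the F1 testes as the transfected tissue.

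There were 4 groups of 3 libraries. The knockdown group descended from males given a mixture of LV3 viruses carrying hairpin RNAs that target the long non-coding RNA lncRNA5251, and 3NC was its control, from males given the LV3 control virus. The overexpression group descended from males given an LV5 virus carrying full-length lncRNA5251, and 5NC was its control, from males given the LV5 vector. All 4 groups thus descended from virus-injected males, and no group from uninjected males was analysed here. The F1 testes were whole tissue. The level of lncRNA5251 itself was not analysed here, so the modification could not be checked in these libraries. Nothing states whether libraries of the same group stem from different animals or litters, so p-values measure the spread between libraries, which may be partly technical.

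Sertoli cells, the somatic cells that nurse the germ cells, seal the seminiferous epithelium with a belt of junctions near its base. Tight junctions, built from claudins and occludin and tied to actin by scaffold proteins such as ZO-1, close the space between neighbouring Sertoli cells. Gap junctions let small molecules pass between cells through connexin channels, while cadherin and nectin adhesions (including the actin-rich ectoplasmic specialisation) and desmosomes hold Sertoli cells to each other and to germ cells. The belt opens and closes again as germ cells move through it. The comparisons asked whether the messenger RNAs of these junctions differed in testes of offspring after lncRNA5251 had been lowered or raised in their fathers.

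The libraries held 12719699 to 15771655 estimated reads. All 13 Sertoli markers had reads in all 12 libraries, with a summed level of 897.0 to 1116.9 CPM (reads scaled to library size, with TMM factors). Clu made up most of this sum, at 508.1 to 708.6 CPM. Single markers did not all follow the sum. Cst9 was at 39.4 to 66.1 CPM in 3NC and 63.4 to 73.0 in the knockdown group. In 5NC it was at 7.99 to 11.7 CPM and in the overexpression group at 23.9 to 53.9. It was the 1 of 13 called by edgeR in the overexpression comparison and in 5NC against 3NC. Wt1 was at 28.9, 42.5 and 31.9 CPM in 3NC and at 21.7, 28.1 and 25.4 CPM in the knockdown group, where every library was lower. The median log2 fold change of the 13 markers was 0.08 in the knockdown comparison, with 0 of 13 called. The part of Cst9, Wt1 or other single markers in the values below was not tested. In whole testis, fewer Sertoli cells and less RNA per cell cannot be told apart. Libraries stood apart by markers of other cells. The summed level of 14 macrophage markers, all detected everywhere, was 545.4 CPM in 3NC replicate 2 and 747.5 CPM in knockdown replicate 1, against 132.4 to 173.3 CPM in the other 10 libraries. The same pair was highest in 9 lymphocyte markers (58.2 and 50.8 CPM, against 7.54 to 13.9) and in 7 stress response genes, such as Atf3 and Junb (56.5 and 59.7 CPM, against 16.9 to 26.0). The summed level of 15 epididymis markers was 360.4 CPM in 5NC replicate 2, 158.6 CPM in 5NC replicate 3 and 26.8 CPM in 5NC replicate 1, against 46.9 to 97.3 CPM in 3NC, 7.84 to 31.0 CPM in the knockdown group and 5.99 to 6.38 CPM in the overexpression group. Of these 15 markers 10 were at 0 in at least 1 library, and Lcn8 and Lcn10 were at 0 in all 12. The summed level of 9 Leydig cell markers, all detected everywhere, was 2157.3, 1920.1 and 1108.5 CPM in 3NC, 1153.3 to 1507.9 in the knockdown group, 1493.0 to 2051.2 in 5NC and 1544.3 to 2144.2 in the overexpression group.

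The promoters of 2 members are shown because their messenger RNAs anchor the account that follows: Cldn11, the claudin with the highest level, and Jup, the desmosome gene with the highest level and the largest positive difference after overexpression at an unadjusted p under 0.05. The windows come from the RefSeq promoter table (GRCm38.p6) and are the 250 bases before the start of a transcript, less any bases that lie inside the span of the gene. For Cldn11 this left all 250 bases, and for Jup, of which other transcripts start farther upstream, 201. Each is read 5′ to 3′ on the gene's strand, with CCAAT boxes (the letters CCAAT) and GC boxes (the letters GGGCGG) in capitals wherever they occur on either strand. Cldn11 lies on the plus strand of chromosome 3 and its sequence is chr3:31149670-31149919. Jup lies on the minus strand of chromosome 11 and its sequence is chr11:100397840-100398040.
Cldn11: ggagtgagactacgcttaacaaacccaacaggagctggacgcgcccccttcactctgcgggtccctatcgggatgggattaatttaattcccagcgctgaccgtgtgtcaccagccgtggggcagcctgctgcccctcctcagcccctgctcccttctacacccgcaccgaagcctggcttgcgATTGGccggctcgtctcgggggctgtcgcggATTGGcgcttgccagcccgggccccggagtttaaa
Jup: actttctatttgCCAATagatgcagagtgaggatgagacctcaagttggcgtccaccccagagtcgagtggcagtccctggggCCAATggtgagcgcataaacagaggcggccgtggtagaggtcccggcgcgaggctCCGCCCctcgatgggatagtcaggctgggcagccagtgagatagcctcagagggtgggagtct
The Cldn11 sequence held 2 CCAAT boxes and no GC box, and the Jup sequence 2 CCAAT boxes and 1 GC box. Whole windows of 250 bases were matched for 29 of the 42 members. A GC box was present in 22 of these 29 (75.9%) and in 52.6% of 12976 windows of tested genes and members, and a CCAAT box in 10 (34.5%) and in 36.6%. The letters CAGGTG, a site that Snail repressors are known to use (both strands searched), were present in 5 member windows (17.2%: Ctnna2, F11r, Gjb2, Nectin2 and Tjp3) and in 15.9% of all. The cyclic AMP response element TGACGTCA was present in none of the 29 and in 2.4% of all. These are matches of letters, and no binding was measured.

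Levels were compared between genes as RPKM, the reads of a gene per kilobase of its length, scaled to the depth of the library. The member with the highest level was Nectin3, a nectin that spermatids carry at the ectoplasmic specialisation, at a mean of 189.9 RPKM over the 12 libraries (157.66 to 232.86). It stood apart from all other members in all libraries, since the highest value of any other member in any library was 68.64 RPKM, for Cldn11 in 3NC replicate 2. Then followed Cldn11 (mean 47.5 RPKM), the claudin of Sertoli cell tight junctions, and Ctnnb1 (mean 40.4 RPKM), beta-catenin, which links cadherins to alpha-catenin. Their ranges overlapped, from 40.36 to 68.64 RPKM and from 33.29 to 54.58 RPKM. In all, 17 members had a mean of at least 10 RPKM, 11 a mean of 1 to 10 and 14 a mean under 1.

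The 4 classes differed in how this signal was divided. The adherens and cell adhesion genes summed to a median of 389.8 RPKM per library, the tight junction genes to 140.1, the gap junction genes to 27.34 and the desmosome genes to 17.05. Gap junction signal came chiefly from Gja1 (connexin 43), with a mean of 14.0 RPKM, and Gjc1 (connexin 45), with 9.26 RPKM, which did not overlap in any library (lowest Gja1 value 12.48, highest Gjc1 value 11.36). Desmosome signal came chiefly from Jup (plakoglobin, a plaque protein shared by desmosomes and adherens junctions), with a mean of 15.36 RPKM. The other 4 desmosome members lay between 0.0908 RPKM (Dsg2, a desmosomal cadherin) and 1.39 RPKM (Pkp2, a plaque protein). Among the cadherins, Cdh2 (N-cadherin) had a mean of 13.82 RPKM, Cdh3 (P-cadherin) of 0.765 and Cdh1 (E-cadherin) of 0.4375. Cdh3 and Cdh1 are neighbours on chromosome 8, and their ranges of 0.53 to 1.18 and 0.26 to 1.03 RPKM overlapped.

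**Figure D1:**
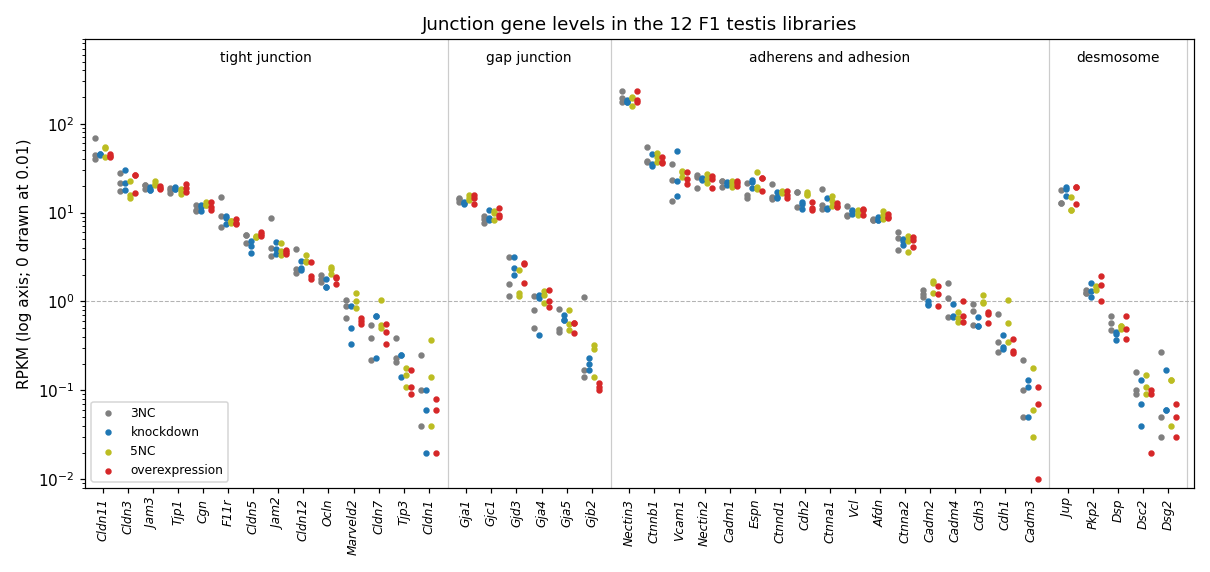
Level of each of the 42 junction genes (RPKM, logarithmic axis, a value of 0 drawn at 0.01) in the 12 libraries, with 1 point per library coloured by group and genes ordered by mean level within each class. Nectin3 lies above all other members, and 14 genes have a mean under 1 RPKM (dashed line).

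Of the 42 members, 37 (88.1%) had enough reads to be tested: 12 tight junction, 5 gap junction, 16 adherens and cell adhesion and 4 desmosome genes. The 5 not tested were Cldn1, Cldn7, Gjb2 (connexin 26), Cadm3 and Dsc2. Their reads per library were few, from 1 to 16 for Cldn1, 4 to 17 for Cldn7, 3 to 39 for Gjb2, 0 to 10 for Cadm3 and 1 to 11 for Dsc2. The filter on low counts left them out. Without it all 42 members were tested and edgeR called 0 in each comparison.

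None of the 37 tested members passed an adjusted p of 0.05 in any comparison (edgeR quasi-likelihood test, Benjamini-Hochberg adjustment over 16388 genes). In the knockdown group against 3NC 0 of 37 were called, with 0.0% of all genes called. In the overexpression group against 5NC 0 of 37 were called, against 0.311% of all genes. In 5NC against 3NC it was 0 of 37 against 0.128% of all genes, for the knockdown effect minus that of overexpression 0 of 37 against 0.0244%, and for any difference among the 4 groups 0 of 37 against 0.238%. At these shares of all genes, a list of 37 with no call is near the background. DESeq2 and limma-trend also called 0 members in each, whereas limma voom with sample quality weights called 9 in the overexpression comparison, given below.

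At an unadjusted p under 0.05 (edgeR), 1 of 37 members stood out in the knockdown comparison (5.64% of all genes), 4 in the overexpression comparison (11.9%), 2 in 5NC against 3NC (10.8%), 1 for the difference of effects (4.63%) and 2 for any group (11.4%). These counts were near the background shares. The median log2 fold change of the 37 was -0.11 in the knockdown comparison, where it was -0.02 over all genes. In the overexpression comparison it was -0.04 against -0.01, and in 5NC against 3NC 0.00 against -0.02. These medians moved with single libraries: the knockdown median was 0.05 without 3NC replicate 2, that of overexpression -0.10 without overexpression replicate 3, and that of 5NC against 3NC 0.12 without 3NC replicate 2. The overexpression comparison and 5NC against 3NC share the 5NC libraries, and the knockdown comparison and 5NC against 3NC share the 3NC libraries, so their values are not independent.

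The size of difference that these data leave room for follows from the 95% intervals. In the knockdown comparison the interval of 28 of the 37 members lay within a 2-fold difference in either direction and that of 16 within 1.5-fold. The numbers were 29 and 19 in the overexpression comparison and 29 and 18 in 5NC against 3NC. The narrowest spreads over the 12 libraries belonged to members of high level. The coefficient of variation was under 10% for 8 tested members, among them Cadm1 (5.66%), an adhesion molecule of germ cells, Jam3 (5.72%), a junctional adhesion molecule, Vcl (vinculin, 6.29%) and Gja1 (7.48%). It was over 30% for 8, from which Dsg2 (75.0%) and Cdh1 (50.8%) stood out.

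**Figure D2:**
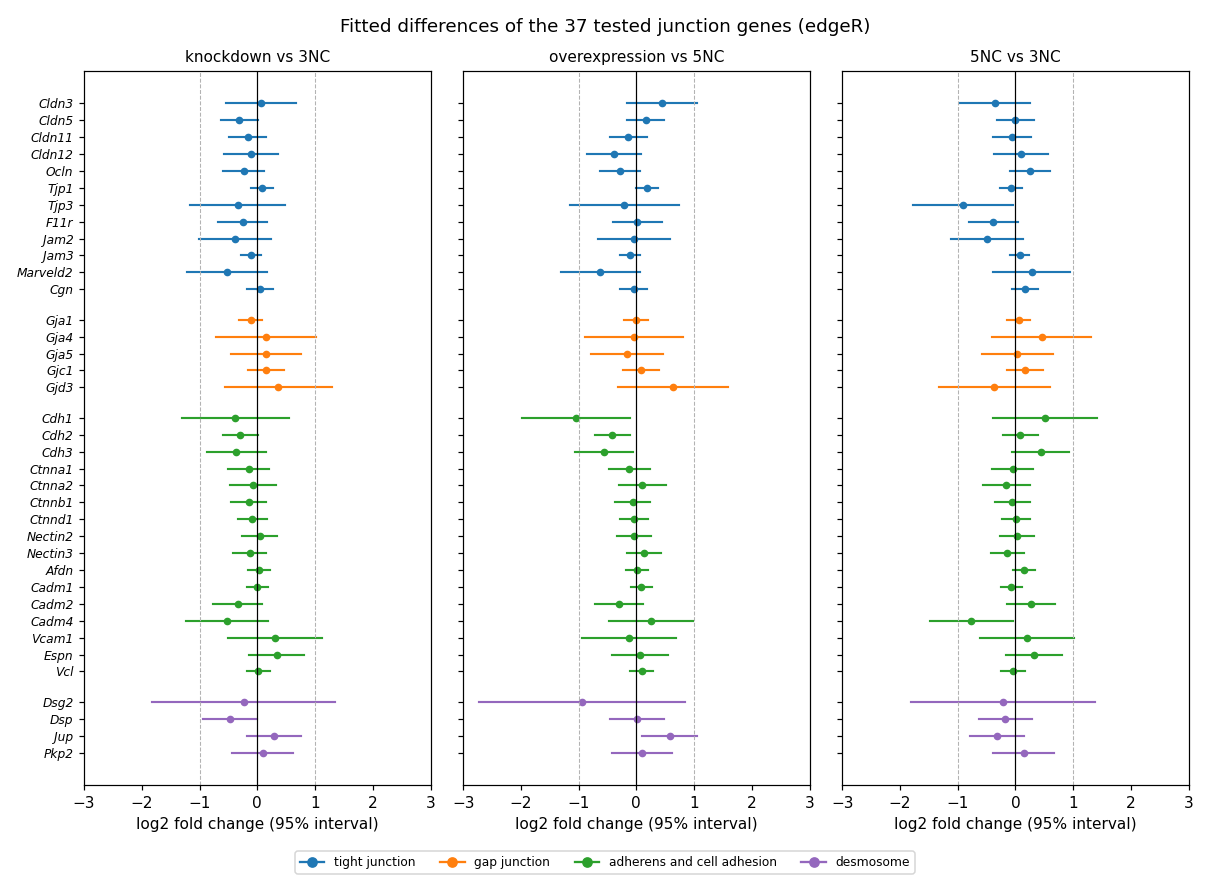
Fitted log2 fold change and 95% interval (edgeR) of the 37 tested junction genes in the 3 comparisons, coloured by class, with dashed lines at a 2-fold difference. No member passed an adjusted p of 0.05, and the widest intervals belong to Dsg2, which had 3 to 23 reads per library.

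In testes of the knockdown offspring, no junction gene was called higher or lower than in 3NC. The smallest unadjusted p belonged to Dsp (desmoplakin, which ties desmosomes to intermediate filaments). Dsp was at 4.83, 5.34 and 4.46 CPM in 3NC and at 3.10, 3.66 and 3.78 CPM in the knockdown group, so every knockdown library was below every 3NC library. The log2 fold change was -0.47 (SE 0.21, edgeR adjusted p = 0.764). Without 3NC replicate 2 and knockdown replicate 1, the libraries with most macrophage and stress response signal, its log2 fold change was -0.32. In CPM, libraries of the groups did not overlap for 5 of 37 members, namely Cldn5, Jam3, Gja1, Cadm2 and Dsp, and for 11.3% of all genes. In these 5 the knockdown libraries were the lower ones. In RPKM, Cldn5 and Jam3 did overlap. Knockdown replicate 1 was at 4.85 RPKM for Cldn5 and 19.22 for Jam3, above 3NC replicate 3 at 4.54 and 18.5.

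The sizes behind that count were small for the abundant genes. Gja1, the main connexin of the Sertoli cell, was at 43.0, 41.1 and 40.7 CPM in 3NC and at 37.6, 38.0 and 39.7 CPM in the knockdown group. The fitted log2 change was -0.12 (SE 0.09, edgeR adjusted p = 0.769). Jam3 had -0.11 (SE 0.08), Cldn5 (an endothelial and Sertoli cell claudin) -0.31 (SE 0.15) and Cadm2 -0.34 (SE 0.19). Jam3 was at -0.07 without 3NC replicate 1, and Cadm2 at -0.21 without 3NC replicate 3. Cadm2, a cell adhesion molecule, was at 10.7, 10.8 and 13.6 CPM in 3NC and at 8.79, 9.90 and 8.98 CPM in the knockdown group.

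The other members named in this comparison overlapped between groups. Cdh2, the cadherin of Sertoli and germ cell adhesion, was at 80.5, 75.2 and 56.7 CPM in 3NC and at 50.0, 63.0 and 60.4 CPM in the knockdown group. 3NC replicate 3 lay among the knockdown libraries, and the log2 fold change was -0.29 (SE 0.14, edgeR adjusted p = 0.764). The Leydig cell markers also divided the 3NC libraries, with 3NC replicate 3 lowest and the knockdown libraries below the other 3NC libraries, and a median log2 fold change of -0.42 with 0 of 9 called. Their part in the Cdh2 result was not tested. The Cdh2 change was -0.18 without 3NC replicate 1 and -0.15 without the pair of libraries high in macrophage markers. The higher pair with the smallest p were Espn (espin, an actin bundler of the ectoplasmic specialisation) with 0.33 (SE 0.22) and Jup with 0.29 (SE 0.21). Without 3NC replicate 1 they were 0.57 and 0.48, and Jup was at 0.17 without 3NC replicate 2. Espn ran from 44.3 to 67.6 CPM in 3NC and from 57.5 to 71.9 CPM in the knockdown group, an overlap of the groups. Both genes were highest of 3NC in replicate 1 and lowest of the knockdown group in replicate 1. So was the sum of 5 elongating spermatid markers, at 16154.6, 11185.8 and 13607.9 CPM in 3NC and 11485.6, 14553.1 and 16158.6 CPM in the knockdown group, and their part was not tested.

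In testes of the overexpression offspring, Cdh1, Cdh2 and Cdh3 had lower mean levels than in 5NC and Jup a higher one, and none passed the adjusted threshold. Cdh2 was at 79.0, 71.3 and 75.1 CPM in 5NC and at 54.6, 51.1 and 63.1 CPM in the overexpression group. All 3 overexpression libraries lay below all 3 of 5NC, and the log2 fold change was -0.42 (SE 0.14, edgeR adjusted p = 0.249). The round spermatid markers, which are not members, moved the other way between the same libraries, from a summed level of 884.2 to 975.8 CPM in 5NC to 1046.7 to 1241.4 CPM in the overexpression group, and their part in the results for Cdh2 and for Jup, which was higher in the overexpression group as they were, was not tested.

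Cdh3, a cadherin of basal epithelial cells, was at 4.55, 3.59 and 3.79 CPM in 5NC and at 3.02, 2.86 and 2.22 CPM in the overexpression group. Its libraries did not overlap either, with a log2 fold change of -0.55 (SE 0.23, edgeR adjusted p = 0.376). Against the other control the picture was not the same: 3NC, at 3.11, 3.48 and 2.23 CPM, overlapped the overexpression libraries and lay wholly below 5NC.

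Cdh1, the cadherin of most epithelia, was at 1.5, 4.29 and 2.43 CPM in 5NC and at 1.64, 1.13 and 1.19 CPM in the overexpression group. The groups overlapped, and the 5NC replicate with most Cdh1 was replicate 2, which also had the highest epididymis marker level. The log2 fold change was -1.04 (SE 0.42, edgeR adjusted p = 0.369) with all libraries. Without 5NC replicate 2 it was -0.56 (edgeR adjusted p = 0.825). The next highest Cdh1 values were in 3NC replicate 2 (2.98 CPM) and 5NC replicate 3 (2.43 CPM), which also followed 5NC replicate 2 in epididymis markers, and the part of epididymal RNA in them was not tested. Of the 15 epididymis markers 8 were tested, with a median log2 fold change of -5.38 in the overexpression comparison and 2 called by edgeR.

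Jup was at 47.1, 33.8 and 34.0 CPM in 5NC and at 65.8, 64.6 and 41.0 CPM in the overexpression group. Overexpression replicate 3 lay below 5NC replicate 1, so the groups overlapped. The elongating spermatid sum was likewise lowest of its group in overexpression replicate 3 (12269.6 CPM, against 14506.1 and 15451.5) and highest of its group in 5NC replicate 1 (15161.3 CPM, against 11976.0 and 12962.8), and its part in the Jup values was not tested. The log2 fold change was 0.58 (SE 0.22, edgeR adjusted p = 0.323), and leaving out 1 library at a time gave 0.47 to 0.78. Jup in the knockdown group, at 48.4, 65.3 and 61.0 CPM, lay within the range of the overexpression group. Tjp1 (ZO-1, the tight junction scaffold) was the other positive gene named here, at 108.0, 120.2 and 115.9 CPM in 5NC and at 131.4, 116.3 and 143.3 CPM in the overexpression group. The log2 fold change of 0.18 (SE 0.09) had an edgeR adjusted p of 0.432, and its interval ran from -0.01 to 0.37. Without overexpression replicate 3 the change was 0.12.

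Libraries of the overexpression group and 5NC did not overlap for 6 of 37 members and for 21.3% of all genes. The overexpression libraries were the higher ones for Cldn5 and the lower ones for Cldn12, Ocln, Marveld2, Cdh2 and Cdh3. Ocln (occludin, a transmembrane strand protein) was at 7.42, 7.95 and 6.65 CPM in 5NC and at 6.18, 6.39 and 5.47 CPM in the overexpression group, a log2 fold change of -0.29 (SE 0.16, edgeR adjusted p = 0.518). Marveld2 (tricellulin, found where 3 cells meet) had -0.62 (SE 0.31) on 23 to 46 reads per library, and Cldn12 had -0.39 (SE 0.22). The Cldn12 groups barely separated, since 5NC replicates 1 and 2 and overexpression replicate 3 were all at 9.92 CPM after rounding. In RPKM 5NC replicate 1 and overexpression replicate 3 were both at 2.75.

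limma voom with sample quality weights, which trusts libraries unequally, called 9 of the 37 members (24.3%) in this comparison, when it called 28.0% of all genes. The 9 were Jup, Cldn3 and Gjd3, higher in the overexpression group, and Cdh2, Cldn12, Cadm2, Cdh1, Dsg2 and Marveld2, lower. Under it Jup had a log2 fold change of 0.84 (SE 0.13, adjusted p = 0.00124) and Cdh2 of -0.48 (SE 0.08, adjusted p = 0.00238). The weights ran from 0.264 for 3NC replicate 2 to 5.38 for 5NC replicate 3, so that 1 control library carried most of the 5NC value. The share of members called lay below that of all genes.

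**Figure D3:**
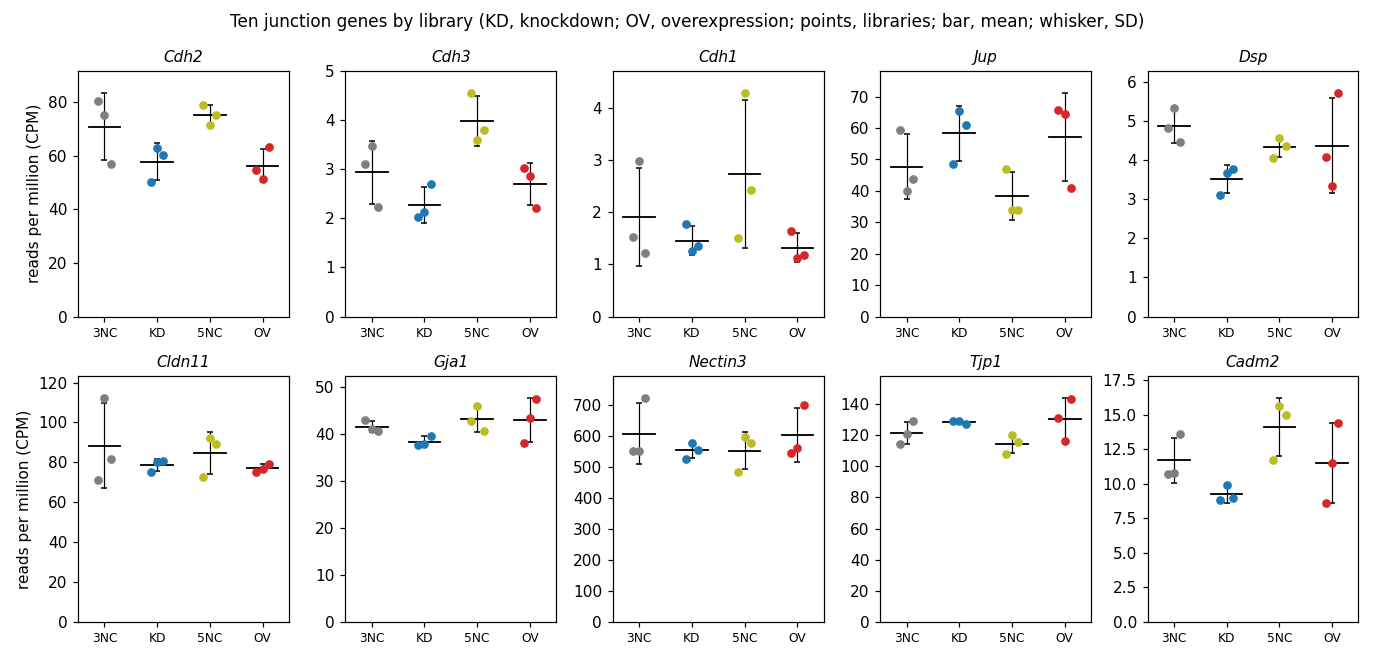
Level in CPM (linear axis from 0) of 10 junction genes in each library, with bars at the group mean and whiskers of 1 SD (n = 3). Cdh2 and Cdh3 do not overlap between 5NC and the overexpression group, Cdh1 in 5NC is set apart by 1 library at 4.29 CPM, and Cldn11, Gja1, Nectin3 and Tjp1 differ little between groups.

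The effects of knockdown and overexpression were compared directly. Cldn5 was the only member with an unadjusted p under 0.05 for the difference of the effects (-0.47, SE 0.21, edgeR adjusted p = 1.0). It was at 7.21, 6.77 and 6.08 CPM in 3NC, 6.07, 5.52 and 4.59 in the knockdown group, 6.93, 6.54 and 6.58 in 5NC and 7.96, 7.46 and 7.06 in the overexpression group. In CPM the knockdown libraries lay below 3NC, with 6.07 and 6.08 CPM the nearest values, and the overexpression libraries above 5NC. In RPKM the knockdown and 3NC libraries overlapped. The summed level of 9 endothelial markers, cells in which Cldn5 is well known, ran from 45.7 to 68.0 CPM in 3NC, 50.2 to 55.1 in the knockdown group, 38.3 to 56.5 in 5NC and 47.0 to 54.7 in the overexpression group. Vwf was the largest part of that sum, and the median log2 fold change of the 9 was -0.19 in the knockdown and 0.19 in the overexpression comparison, the directions of Cldn5, with 0 of 9 called in either. Their part was not tested. For Cdh2 the difference of effects was 0.13 with an interval from -0.30 to 0.55, and for Jup -0.29 with an interval from -0.96 to 0.38. Both genes had the same sign in the knockdown and the overexpression comparison.

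The control groups 5NC and 3NC, whose fathers were given different control viruses, were compared to show how far the controls differ without the modification. Cadm4, a cell adhesion molecule, was at 2.25, 3.04 and 1.42 CPM in 3NC and at 1.19, 1.27 and 1.5 CPM in 5NC, so the groups overlapped. Its log2 fold change was -0.76 (SE 0.33, edgeR adjusted p = 0.441), and -0.48 without 3NC replicate 2. Tjp3 (ZO-3) had -0.91 (SE 0.40, edgeR adjusted p = 0.448) on 5 to 17 reads per library, and -0.63 without 3NC replicate 2. On the higher side the smallest p belonged to Cdh3, with 0.44 (SE 0.23), and Afdn (afadin, which joins nectins to actin), with 0.15 (SE 0.09). Without 3NC replicate 3 Cdh3 was at 0.28, and without 5NC replicate 2 Afdn was at 0.08. Libraries did not overlap for 4 of 37 members and for 13.0% of all genes. Those of Cgn (cingulin, a tight junction scaffold), Cdh3 and Pkp2 were higher in 5NC and those of Tjp3 lower.

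The genes with the highest level in their classes, beside Jup, were as follows. Cldn11 was at 70.9, 112.1 and 81.8 CPM in 3NC, 75.3, 80.4 and 80.7 in the knockdown group, 72.7, 92.4 and 89.3 in 5NC and 75.4, 76.5 and 79.3 in the overexpression group. 3NC replicate 2 was the highest of the 12 libraries. The log2 fold change was -0.16 in the knockdown comparison (interval -0.49 to 0.16) and -0.14 in the overexpression comparison (interval -0.46 to 0.19). Nectin3 had -0.13 (interval -0.43 to 0.16) and 0.13 (interval -0.17 to 0.42). Without 5NC replicate 2 the overexpression value of Cldn11 was -0.07, and without overexpression replicate 3 that of Nectin3 was 0.01. Gja1 in the overexpression comparison had -0.01 (interval -0.21 to 0.19).

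The study also measured junction proteins, most of them in a cultured line of spermatogonial cells and not in these testes. CADM2 was measured by western blot in F1 testes as well, and the paper reports more of it in the knockdown group. Cadm2 messenger RNA, given above, was lower in every knockdown library and was not called. Protein and messenger RNA are different measures. The messenger RNAs of others of the measured proteins were as follows. F11r (junctional adhesion molecule A) was at 21.8, 32.7 and 17.0 CPM in 3NC and at 21.1, 18.1 and 20.8 CPM in the knockdown group. In 5NC it was at 18.8, 17.5 and 18.5 CPM and in the overexpression group at 17.6, 19.9 and 17.9 CPM, so 3NC replicate 2 stood above every other library. Ctnnd1 (p120 catenin, which keeps cadherins at the membrane) was at 74.3 to 99.2 CPM over all libraries, with log2 fold changes of -0.08 (SE 0.11) in the knockdown and -0.05 (SE 0.11) in the overexpression comparison. Without 3NC replicate 2 the former was 0.06, and without overexpression replicate 1 the latter was 0.01. Gja4 (connexin 37) had 10 to 32 reads per library and log2 fold changes of 0.15 (SE 0.40) and -0.03 (SE 0.39). Leaving out 1 library at a time gave -0.08 to 0.48 and -0.23 to 0.11, ranges that include both signs. Dsg2 had 3 to 23 reads per library, and its intervals, from -1.82 to 1.35 and from -2.72 to 0.84, reached past a 2-fold difference in both directions after knockdown and, after overexpression, toward lower values.

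The highest and lowest values of the members were spread over the libraries. Of the 37 tested members, 11 (29.7%) had their highest CPM in 3NC replicate 2, as did 17.9% of all genes tested. In 5NC replicate 2 it was 5 (13.5%) against 10.1%, and in knockdown replicate 1 it was 1 (2.7%) against 9.27%. The lowest CPM of 7 members (18.9%) each fell in knockdown replicate 1 and 5NC replicate 1, against 8.49% and 11.1% of all genes. Vcam1, an adhesion molecule to which white blood cells bind, was highest in knockdown replicate 1 at 157.9 CPM and next in 3NC replicate 2 at 109.1 CPM, the same pair that led in macrophage markers. In the other libraries it was at 46.2 to 94.2 CPM. Its protein was also among those measured in the cultured cells. The log2 fold change of Vcam1 was 0.31 (SE 0.37, edgeR adjusted p = 0.83) in the knockdown comparison, -0.27 without knockdown replicate 1 and 0.64 without 3NC replicate 2, and -0.13 (SE 0.37, edgeR adjusted p = 0.94) in the overexpression comparison. In 3NC replicate 2 Jam2, a junctional adhesion molecule of endothelium and Sertoli cells, reached 37.3 CPM, and elsewhere it lay at 14.5 to 20.5 CPM. Gjb2 had 2.42 CPM in 3NC replicate 2 against 0.238 to 0.716 CPM in the other 11. The part of white blood cells or of the stress response, which led in the same pair, in these values was not tested. Without 3NC replicate 2 and knockdown replicate 1 the count of called members remained 0 in all 5 tests, and likewise when 5NC replicate 2 was also left out.

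**Figure D4:**
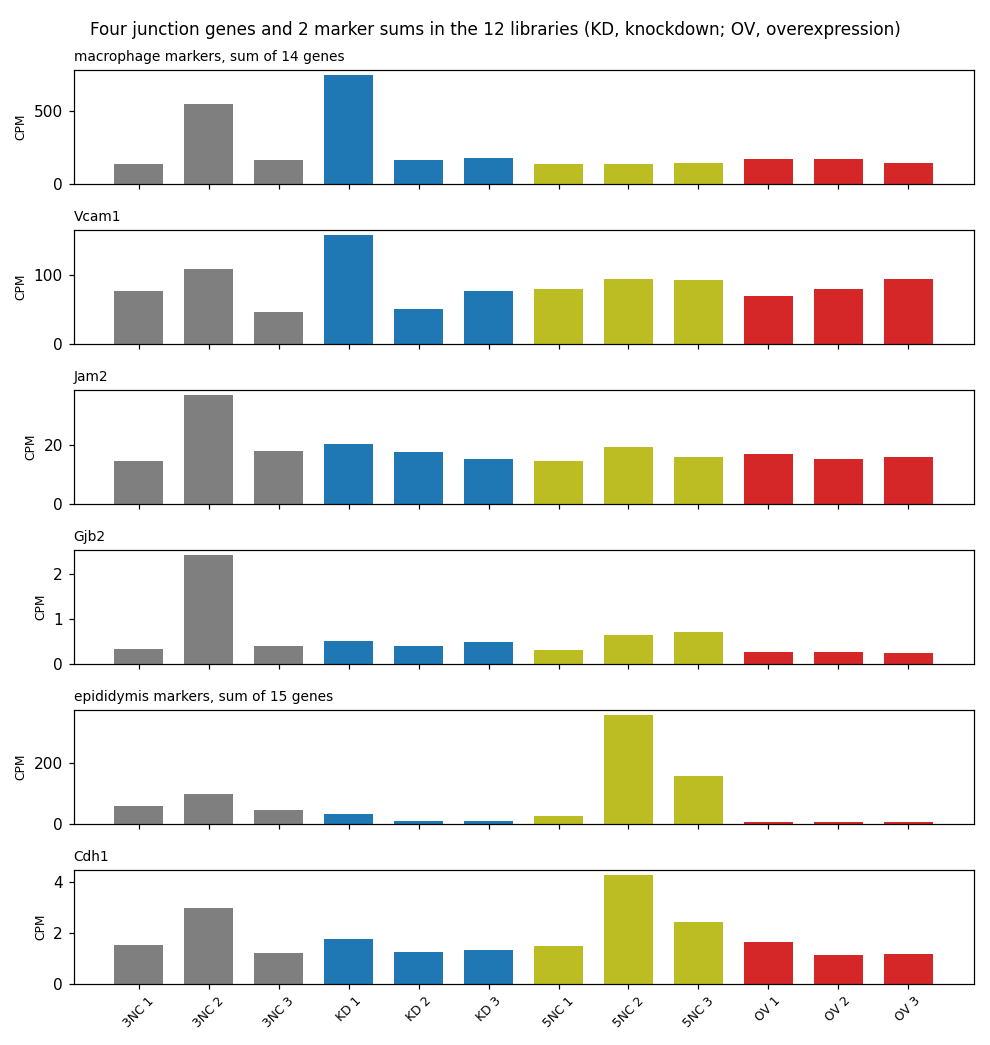
Level in CPM (linear axes from 0) of Vcam1, Jam2, Gjb2 and Cdh1 in each library, beside the summed level of 14 macrophage and 15 epididymis markers. Vcam1 and the macrophage sum have the same 2 highest libraries, Jam2 and Gjb2 are highest in 3NC replicate 2 alone, and Cdh1 and the epididymis sum share 5NC replicate 2 as their highest library.

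A wider list of 88 further junction genes was examined in the same fit, and 60 of them were tested. None was called by edgeR in any of the 5 tests, and 3, 6 and 6 had an unadjusted p under 0.05 in the knockdown comparison, the overexpression comparison and 5NC against 3NC, where the shares of all genes were 5.64%, 11.9% and 10.8%. In the difference of effects and among any of the groups the numbers were 2 and 8, with 4.63% and 11.4% of all genes. limma-trend also called none, DESeq2 called 1 (Cgnl1, in the overexpression comparison, with 2.0% of all genes called, and among any of the groups, with 3.5%), and voom with quality weights called 14 in the overexpression comparison (28.0% of all genes) and 1 (Cgnl1) among any of the groups (2.48% of all genes). Single calls at these shares are near the background. The genes named from it were chosen after their values were seen. Cgnl1 (paracingulin, a scaffold of apical junctions) had the smallest adjusted p. It was at 52.5, 45.5 and 45.2 CPM in 5NC and at 65.6, 63.2 and 60.1 CPM in the overexpression group, with no overlap and a log2 fold change of 0.40 (SE 0.09, edgeR adjusted p = 0.102). In 3NC it was at 59.7, 60.0 and 52.1 CPM, which overlapped 5NC only in its lowest library, and in the knockdown group at 69.1, 69.1 and 64.8 CPM, above every 3NC library. The desmosomal cadherin Dsg1a, with a mean of 15.3 RPKM against 0.0908 for the member Dsg2, was at 53.2, 63.4 and 61.8 CPM in 5NC and at 80.7, 75.8 and 87.4 CPM in the overexpression group (edgeR adjusted p = 0.181). In 3NC Dsg1a was at 67.9, 63.5 and 89.6 CPM, above every 5NC library and overlapping the overexpression group, and in the knockdown group at 86.5, 88.3 and 76.6 CPM.

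Reads of 6 members are uncertain because their gene overlaps another gene of the table and counting by strand is not stated: Tjp3, Ctnna1, Ctnna2, Afdn, Cadm3 and Vcl.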

How the data were processed

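RNA-seq had been carried out on 12 testis libraries, 3 per group, and groups were taken from the sample titles. Per the methods, messenger RNA was enriched with oligo(dT), and the authors mapped reads to mouse genes with SOAPaligner 2.20. The build in the labels is mm10. Estimated counts per gene in the deposited table are unscaled and hold fractions for 11.6% to 12.6% of genes and for no member, and RPKM values that the authors computed from the reads. How reads were shared among genes is not given in the sources read. A further 18 per-sample columns of other groups, and 14 columns of group means, were not used. Gene IDs were matched to RefSeq (GRCm38.p6) for 20630 of 20788 rows (99.2%).

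Estimated counts were rounded. filterByExpr in edgeR 4.0.16 (R 4.3.3) removed 4400 genes and left 16388. One fit of all 12 libraries, with TMM scaling and no covariate, gave quasi-likelihood tests (biological coefficient of variation 22.9%, 8 residual degrees of freedom), adjusted by Benjamini-Hochberg over all tested genes with a threshold of 0.05. CPM values are scaled by TMM. At 12719699 to 15771655 estimated reads per library, genes with few reads have wide intervals. Scripts were tested on simulated counts.

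The members and lists were chosen with earlier results of these data known. Individually named members were those with an adjusted p under 0.05, in each comparison the 2 higher and 2 lower with the smallest p, the member with the highest mean RPKM of each class, and those whose proteins the study measured. Members named for libraries that did not overlap, for their spread or level, or for a library that stood apart, and genes of the wider list, were chosen once their values had been seen. The same-number libraries did not deviate together (correlations of -0.641 to 0.386, 5 of 18 over 0.1), so replicates were not treated as pairs. Alternatives used other scaling, filters, library subsets, DESeq2 1.42.0 and limma 3.58.1 (limma-trend on log2 CPM and on log2(RPKM + 0.1), and voom with quality weights).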

Additional observations from a re-analysis of the deposited data

How the results depend on the processing

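Under the 26 alternative settings the number of junction genes called was 0 in each of the 5 tests that a setting allowed, with 1 exception: limma voom with sample quality weights called 9 in the overexpression comparison, where it also called 4582 of 16388 genes. The replicate block gave 0 called members in every test, as did each fit without 1 library. DESeq2 called 0 members, although it called 16 genes in all in the knockdown comparison and 328 in the overexpression comparison. The sign of the log2 fold change, called by edgeR for none of the 37 tested members, turned in at least 1 setting for 21 members in the knockdown comparison, 17 in the overexpression comparison and 18 in 5NC against 3NC. Among them were Cldn11 after knockdown, -0.16 in all libraries and 0.04 without 3NC replicate 2, Cdh1 after knockdown, -0.39 and 0.09 without 3NC replicate 2, Nectin3 after knockdown, -0.13 and 0.02 without 3NC replicate 3, and Vcam1 after knockdown and Ctnnd1 and Gja4 in both comparisons, given above. It did not turn for the 2 higher and 2 lower members with the smallest p in each comparison. The knockdown median was 0.005 without the 2 libraries high in macrophage markers. Leaving out also the library highest in epididymis markers was chosen after the data were examined, and Afdn in 5NC against 3NC was then at 0.05. With 3 libraries per group, members with few reads, such as Dsg2, Tjp3, Cdh1 and Gja4, had 95% intervals that reached past a 2-fold difference in at least 1 comparison.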
